A study of Mus musculus with 8 samples.

Results

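The p53 and growth arrest genes described here are 10 genes, Trp53, Mdm2, Cdkn1a, Gadd45a, Gadd45b, Gadd45g, Btg1, Btg2, Bax and Plk2, out of 21887 protein-coding genes of the annotation used. They were chosen by name, with earlier results of these data known. Each was taken with 20 kb on either side of its span. Every CTCF region there was placed by its summit, the position of the peak maximum. The binding of CTCF was profiled by ChIP-seq, which sequences DNA recovered with an antibody, in primary cortical neurons of wild-type Swiss-Webster mice, dissected on embryonic day 16 and kept in culture to day 13. The NMDA cultures received 50 µM of the glutamate receptor agonist NMDA for 10 minutes and then recovered without it for 50 minutes, and the control cultures are labelled as having no treatment. Both groups had 2 ChIP replicates, called biological replicates in the labels, and 2 input samples that were not analysed here. A culture protocol that all samples share also mentions etoposide at 50 µM for 30 minutes, a topoisomerase poison that breaks DNA and is a classical trigger of p53, but no sample is labelled as treated with it. The comparison asks where CTCF was detected at these genes with and without NMDA stimulation. The data are 1 list of reproducible regions per condition, so differences between conditions have no replicate spread to be judged by and no test is given. The lists hold no read counts and no expression, so the depth is unknown and the neuron label could not be checked against marker genes.

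p53, the product of Trp53, is a transcription factor that accumulates after DNA damage and other stress. It switches on inhibitors of the cell cycle, such as Cdkn1a, and promoters of cell death, such as Bax, and it also switches on Mdm2, whose product marks p53 for degradation. The Gadd45 and Btg genes encode small growth arrest proteins, and Gadd45b, Btg2 and Plk2 are also known as genes that neurons transcribe after synaptic activity. CTCF binds DNA through its zinc fingers and anchors chromatin loops together with cohesin.

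In the 10 loci the NMDA list held 30 regions and the control list 25. A region was called shared if it overlapped a region of the other list by at least 1 bp, which 25 of the NMDA regions and 24 of the control regions did. The other 5 NMDA regions were found in the NMDA list alone (NMDA-only) and lay at Trp53, Mdm2 (2 regions), Gadd45b and Bax. The single control-only region lay at the start of Bax. NMDA-only regions were 16.7% (95% Wilson interval 7.34 to 33.6) of the NMDA regions in the loci, against 15.5% of the whole NMDA list. Control-only regions were 4.00% (0.710 to 19.5) of the control regions in the loci, against 9.22% of the whole control list. These intervals cover counting error only and treat regions as independent, though 7 of the 30 NMDA regions lay at Mdm2. They are no test of the loci against the list, since the members were chosen with earlier results known. An NMDA-only region lay in the locus of 4 of 10 members, and with the same flanks in 26.7% of all protein-coding genes and in 21% of those no longer than Mdm2, the longest member. A control-only region lay in the locus of 1 of 10 members, against 16.3% of all genes and 11.8% of the shorter ones.

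**Figure D1:**
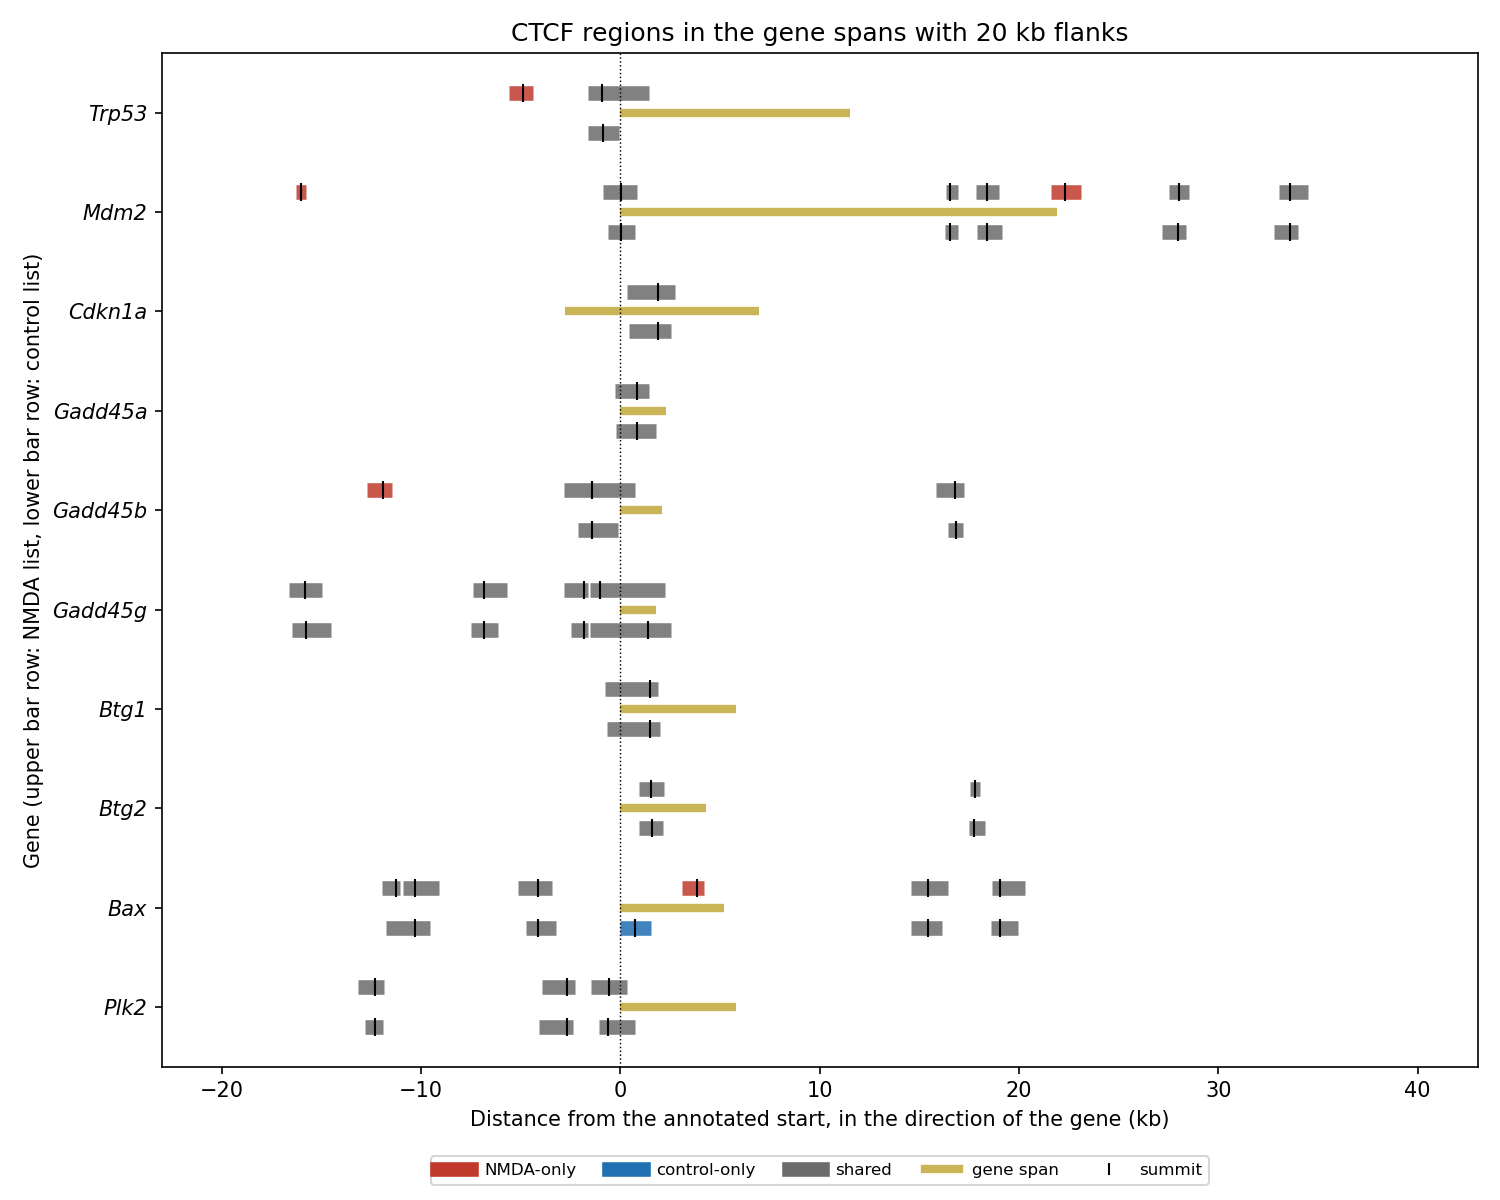
Regions of the NMDA list (upper bars) and the control list (lower bars) in the spans of the 10 genes with 20 kb flanks, by distance from the annotated start in kb, with the gene span between the lists and a tick at each summit. For Cdkn1a the downstream of 2 starts is at 0. Of the 30 NMDA regions 5 are NMDA-only (red), and the 1 control-only region (blue) lies at the start of Bax.

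CTCF lay close to the start of nearly every member. An NMDA summit lay within 2 kb of an annotated start at 9 of 10 members, all but Bax, against 33% of the 17492 genes with an annotated start and 26.5% of the shorter ones. A control summit did so at 10 of 10 members, against 32.4% and 25.6%. The window of 2 kb was chosen after the positions were seen. Within 1 kb the counts were 4 of 10 for NMDA, against 27.5% of genes and 20.9% of the shorter ones, and 5 of 10 for control, against 27.2% and 20.4%. A region covered the start itself at 7 members in the NMDA list, against 25.2% of genes and 19.5% of the shorter ones, and at 6 in the control list, against 25.6% and 19.1%. A shared region in the span with flanks was found at 10 of 10 members, against 71.8% of all genes and 63.1% of the shorter ones. The strength of a region is given below as its rank percentile, the percent of regions of the same list with a lower −log10 p, because the −log10 p itself grows with sequencing depth and cannot be compared between lists. The strongest region of each locus had a median rank percentile of 89.8 in the NMDA list and 92.6 in the control list, against 78.8 and 78.2 for all genes with a region in the span and flanks. The strongest of several regions tends to rank higher. Members had a median of 2.5 NMDA and 2 control regions, against 1 in each list for the shorter genes. Over all member regions the median rank percentile was 56.1 in the NMDA list and 63.5 in the control list.

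**Figure D2:**
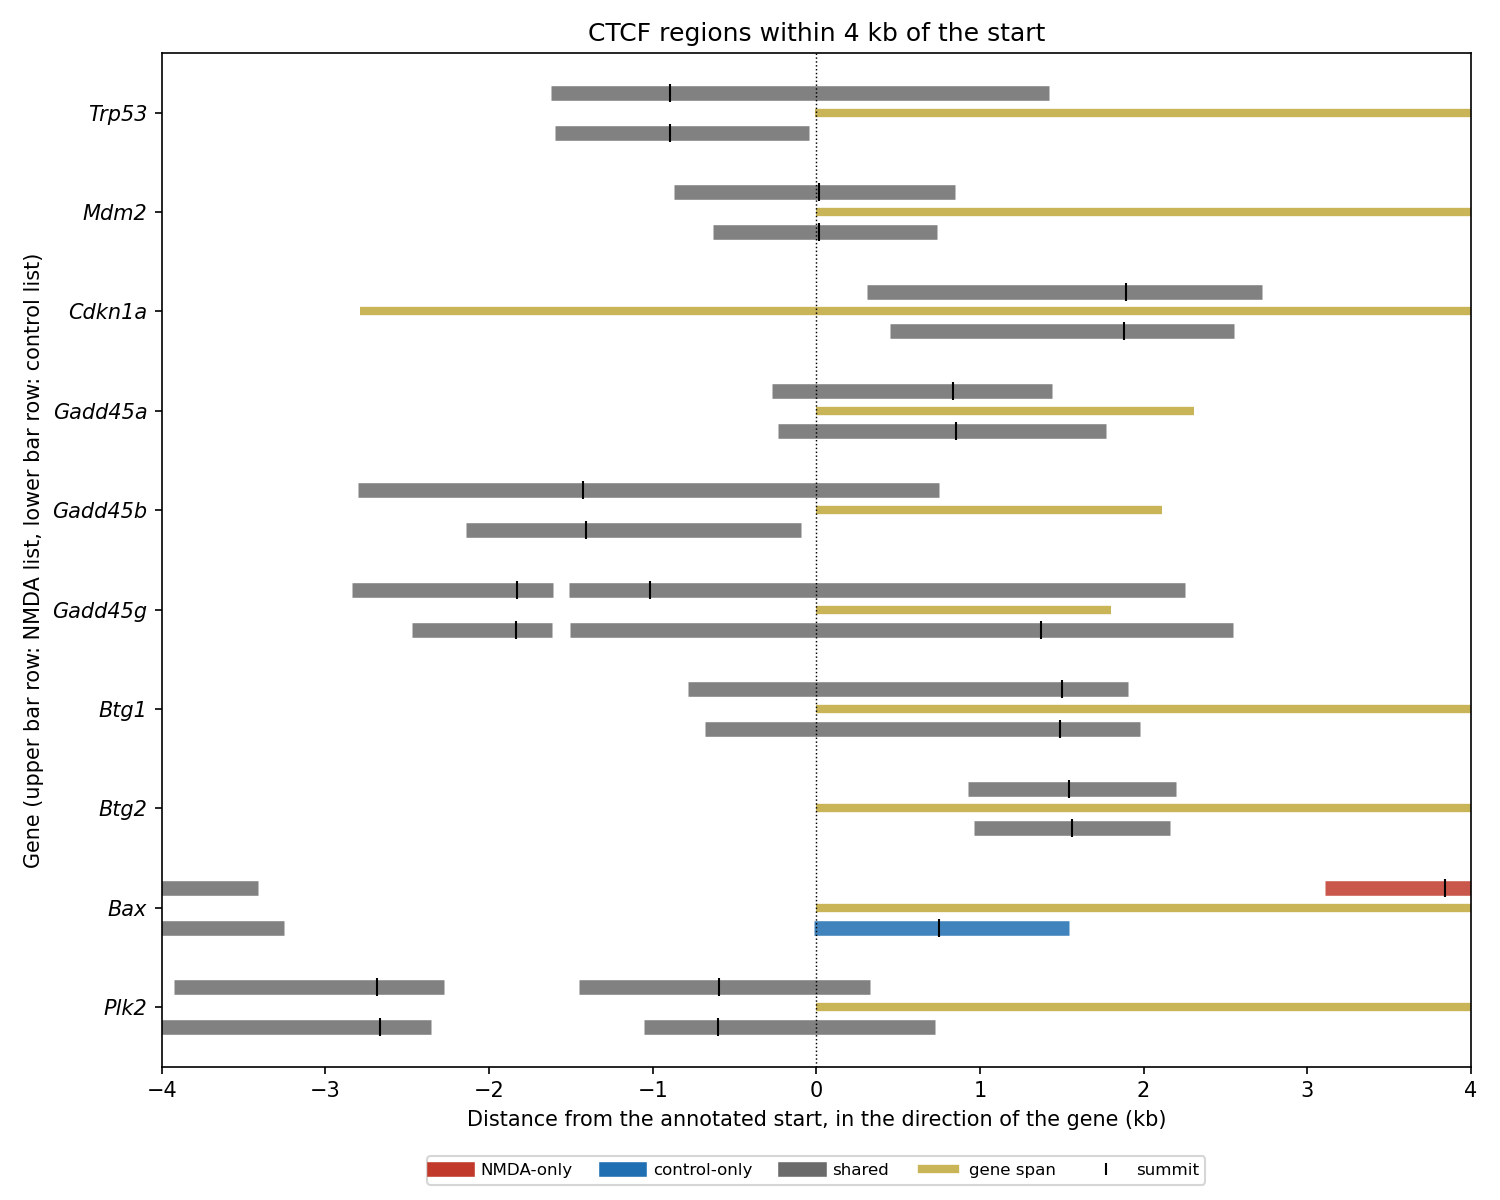
The same regions within 4 kb of the annotated start, NMDA list above and control list below at each gene. At Trp53 and Gadd45b the NMDA region crosses the start and the control region ends 42 and 95 bp before it, and at Bax the start is covered by the control-only region alone.

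Trp53 (chr11:69580348-69591873, plus strand, mm10) lies head to head with Wrap53, which encodes a telomerase and Cajal body protein. Its strongest region was at chr11:69578738-69581780 in the NMDA list, with a −log10 p of 760 and a rank percentile of 99.1, and at chr11:69578760-69580317 in the control list, with a −log10 p of 972 and a rank percentile of 97.7. The summits, 895 bp (NMDA) and 892 bp (control) upstream of the Trp53 start, were 3 bp apart and lay inside the Wrap53 span, and within 1 kb of an end of both genes, so the region cannot be assigned to Trp53 alone. The region was 3043 bp wide in the NMDA list and 1558 bp in the control list. That ratio of 1.95 was above the ratio of 95.6% of the 31099 overlapping pairs of the lists, whose median was 1.08. The added width lay towards Trp53, where the NMDA region reached 1421 bp past the start and the control region ended 42 bp before it. At 2 members, Trp53 and Gadd45b, the NMDA region covered the start and no control region did, against 4.48% of genes and 3.93% of the shorter ones. Region edges are set by peak calling and have no replicate spread, so whether a region reaches a start can turn on a few bases. Of the 25 overlapping pairs in the loci, 3 had an NMDA region over 1.5 times as wide, 1 at Trp53 and 2 at Gadd45b, against 13.7% of all pairs. An NMDA-only region, chr11:69574796-69575991, lay 4908 bp upstream inside Wrap53, at a rank percentile of 26.8. The NMDA list also gives a −log10 p for each replicate, in a first and a second column, and these were 14.3 and 29.2.

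The window of 300 bases around the Trp53 start (RefSeq promoter table, GRCm38.p6, 250 bases before to 50 after the start) is shown because the control region ended inside it and the NMDA region ran through it. A pair of CTCF motif forms was searched on both strands. One is a gapped core, made of CC, 3 free bases, AG, 2 free bases and GGC, and the other is the short core AGGGGGC, and the Trp53 window held a match to neither.
Trp53, chr11:69580109-69580408, plus strand: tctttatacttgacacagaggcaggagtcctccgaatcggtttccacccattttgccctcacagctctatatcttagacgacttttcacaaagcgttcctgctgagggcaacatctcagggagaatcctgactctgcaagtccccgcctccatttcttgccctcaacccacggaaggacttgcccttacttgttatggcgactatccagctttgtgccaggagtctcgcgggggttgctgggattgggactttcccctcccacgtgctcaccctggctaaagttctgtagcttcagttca

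Mdm2 (chr10:117688875-117710758, minus strand), which encodes the ubiquitin ligase that limits p53, had 7 regions in the NMDA list, the most of any member, and 5 in the control list. Its strongest region sat on the start. It was at chr10:117709910-117711631 in the NMDA list, with a −log10 p of 465 and a rank percentile of 95.6, and at chr10:117710019-117711391 in the control list, with a −log10 p of 917 and a rank percentile of 97.3. The NMDA summit lay 15 bp and the control summit 17 bp inside the gene. The start window below is shown because both summits fall inside it. Capitals mark motif matches: 2 matches of the gapped core before the start, and AGGGGGC at positions 18 to 24 after it, counted with the start as 0. The centre of the AGGGGGC match lay 6 bp from the NMDA summit and 4 bp from the control summit.
Mdm2, chr10:117710709-117711008, minus strand: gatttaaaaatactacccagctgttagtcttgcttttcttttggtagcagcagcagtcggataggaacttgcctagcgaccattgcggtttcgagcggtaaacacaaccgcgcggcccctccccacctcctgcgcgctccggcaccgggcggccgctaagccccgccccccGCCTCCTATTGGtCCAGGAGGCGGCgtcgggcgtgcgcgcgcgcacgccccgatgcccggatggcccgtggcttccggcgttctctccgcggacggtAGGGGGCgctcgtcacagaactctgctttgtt

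The other Mdm2 regions were weaker. The 4 shared ones among them had higher rank percentiles in the NMDA list, as did 61.8% of all pairs, but with the first replicate column alone the sign turned at 2 of the 4. Inside the gene, the pair with its NMDA summit 16559 bp from the start ranked at 24.9 in the NMDA list and 14.2 in the control list, a difference that was −6.15 points by the first replicate column alone and 18.9 by the second. The pair at 18370 bp ranked at 16.7 in the NMDA list and 11.7 in the control list, and 1.13 points apart when only shared regions were ranked. Beyond the 3′ end, inside the neighbouring carboxypeptidase gene Cpm, the pair at 28034 bp ranked at 46.3 in the NMDA list and 20.0 in the control list. That difference of 26.3 points was above the differences of 97.7% of all pairs. It was 23.2 points when the NMDA rank was taken from the first replicate column alone and 29.0 points from the second. The farthest pair, at 33579 bp, ranked at 53.9 in the NMDA list and 35.2 in the control list. Its NMDA replicate columns were 18.7 and 84.2, and by the first of these alone the difference was −4.52 points and by the second 26.9. Both NMDA-only regions of the locus had their summits outside the gene, though the first given here reached into its span. One, chr10:117687666-117689171, had its summit 441 bp beyond the 3′ end, with replicate columns of 23.8 and 31.4 and a rank percentile of 34.6. It was the only NMDA-only region at an end of a member (a summit within 1 kb), 1 of 10 members against 4.81% of genes and 3.98% of the shorter ones. A region of either list lay at an end of 6 of 10 members, against 36.4% and 29.5%. The second, chr10:117726522-117727020, lay 16006 bp upstream at a rank percentile of 2.76, with a score of 570 where the lowest in the list was 540.

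Cdkn1a (chr17:29090979-29100722, plus strand), which encodes the cyclin-dependent kinase inhibitor p21, held the strongest region of all 10 loci and no other. It was at chr17:29094081-29096492 in the NMDA list, with a −log10 p of 809 and a rank percentile of 99.4, and at chr17:29094219-29096322 in the control list, with a −log10 p of 1172 and a rank percentile of 98.7. The gene has 2 annotated starts 2790 bp apart. The summits lay 1891 bp (NMDA) and 1883 bp (control) downstream of the second start, inside the gene, and the regions began 312 bp (NMDA) and 450 bp (control) after that start. Neither start was covered in either list. The replicate columns of the NMDA region were 344 and 465.

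The Gadd45 genes encode small stress sensor proteins that activate a kinase upstream of p38. The 3 genes differed in how CTCF lay at them. Gadd45a (chr6:67035096-67037407, minus strand) had a single shared region, over its start and first part. It was at chr6:67035966-67037679 in the NMDA list and chr6:67035638-67037643 in the control list, with summits 837 bp (NMDA) and 856 bp (control) after the start. Its rank percentile was 57.0 in the NMDA list (−log10 p 113) and 89.5 in the control list (−log10 p 491). The difference of −32.5 points was lower than that of all but 0.817% of the overlapping pairs. The replicate columns, 55.1 and 58.3, gave NMDA rank percentiles of 66.9 and 51.1, both below the control value. Of the 25 pairs in the loci, 2 ranked over 20 points lower in the NMDA list, against 2.84% of all pairs, and 2 ranked over 20 points higher, against 6.16%. The other pair that ranked lower is the small side piece of a split region at Bax. Across the 25 pairs the NMDA rank was higher in 13 and lower in 12, against 61.8% higher over all pairs, with a median difference of 0.42 points against 2.44. When only shared regions were ranked it was higher in 12 of 25, against 52.3% of all pairs. With the first replicate column alone, the sign of the difference was kept in 15 of the 25 pairs, and with the second in 22. At 9 members a pair had its NMDA summit within 2 kb of the start. For the pair nearest to the start, the ranks differed by less than 5 points at 8 of these members, all but Gadd45a. Gadd45g had a second pair within 2 kb, with its NMDA summit 1832 bp upstream, and there the ranks differed by 21.6 points. Over all pairs of the lists the lower and upper quartiles of the difference were −3.36 and 9.43 points, so small differences are common. The share of all pairs near starts within 5 points was not computed, so the count of 8 members has nothing to be set against. Pairs near the top of both lists, such as those at Trp53 and Cdkn1a, also have little room to differ.

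The start window of Gadd45a is shown because this pair had the largest rank difference of the pairs nearest to a start. Capitals mark 1 match of the gapped core, 1070 bp from the NMDA summit and 1089 bp from the control summit.
Gadd45a, chr6:67037358-67037657, minus strand: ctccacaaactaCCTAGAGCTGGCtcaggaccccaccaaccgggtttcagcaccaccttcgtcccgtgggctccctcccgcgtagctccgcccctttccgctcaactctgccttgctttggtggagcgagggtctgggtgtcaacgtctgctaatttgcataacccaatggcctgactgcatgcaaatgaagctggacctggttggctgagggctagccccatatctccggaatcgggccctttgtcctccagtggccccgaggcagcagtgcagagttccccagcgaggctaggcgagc

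**Figure D3:**
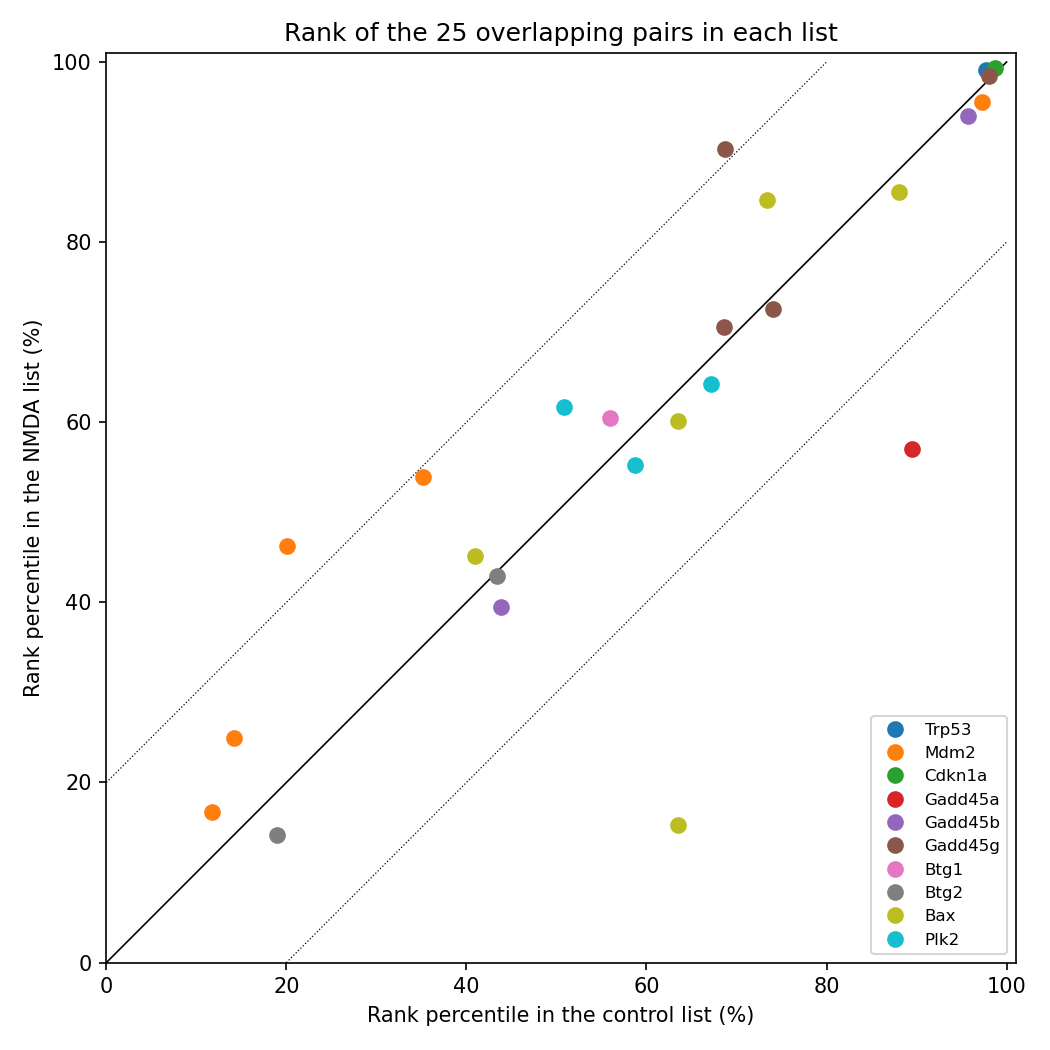
Rank percentile of the 25 overlapping pairs in the NMDA list (vertical axis) against the control list (horizontal axis), coloured by gene. The solid line marks equal ranks and the dotted lines a difference of 20 points. Gadd45a, at 57.0 against 89.5, and the side piece at Bax, at 15.2 against 63.5, lie below the lower dotted line, and 1 pair each of Mdm2 and Gadd45g lies above the upper one.

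Gadd45b (chr10:80930091-80932204, plus strand) had a strong region upstream of its start, chr10:80927289-80930841 in the NMDA list (rank percentile 94.0) and chr10:80927952-80929996 in the control list (95.7). The summits lay 1426 bp (NMDA) and 1406 bp (control) upstream. As at Trp53, the region was wider in the NMDA list, 3553 bp against 2045 bp in the control list, a ratio above that of 92.7% of pairs. It reached 750 bp into the gene, and the control region ended 95 bp before the start. A further shared region, 16805 bp downstream, ranked at 39.5 in the NMDA list and 43.8 in the control list. The NMDA-only region, chr10:80917386-80918651, lay 11883 bp upstream. Its summit was inside the span of the lamin gene Lmnb2 and within 1 kb of one end of that span, start or 3′ end not being told apart here. The replicate columns of this region were 24.8 and 15.3, 1 of 2 NMDA regions in the loci in which the first column was above the second. In the whole list the second column was higher in 79.4% of regions.

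Gadd45g (chr13:51846675-51848475, plus strand) had 4 regions in each list, and all were shared. The strongest spanned the whole gene. It was at chr13:51845163-51848930 in the NMDA list, with a width of 3768 bp and a rank percentile of 98.4, and at chr13:51845171-51849221 in the control list, with a width of 4051 bp and a rank percentile of 98.0. The rank and the width were alike but the summit was not. It lay 1016 bp upstream of the start in the NMDA list and 1371 bp downstream in the control list, 2387 bp away, a distance above that of 99.7% of pairs. The median width was 1182 bp in the whole NMDA list and 1123 bp in the control list, so a typical pair has little room for such a distance. Each list gives a single summit per region, and further maxima within these wide regions are not shown. Summits were over 100 bp apart in 2 of the 25 pairs, against 8.52% of all pairs, and the median distance was 16 bp in the loci and 18 bp over all pairs. A second region, chr13:51843836-51845066 in the NMDA list and chr13:51844205-51845057 in the control list, lay just upstream. Its summits were 1832 bp (NMDA) and 1833 bp (control) before the start, and its rank percentile was 90.3 in the NMDA list and 68.8 in the control list. That difference of 21.6 points was above that of 95.2% of pairs, and it was 17.0 points by the first replicate column alone and 24.3 by the second. The other 2 regions, 15804 and 6828 bp upstream, ranked at 72.6 and 70.5 in the NMDA list, against 74.1 and 68.6 in the control list.

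Btg1 (chr10:96617001-96622813, plus strand) and Btg2 (chr1:134074865-134079155, minus strand) encode antiproliferative proteins that recruit a deadenylase complex to messenger RNAs. At both genes CTCF lay about equally far inside the gene and at a middling rank. Btg1 had a single region, chr10:96616214-96618908 in the NMDA list (rank percentile 60.5) and chr10:96616320-96618976 in the control list (55.9), with summits 1502 bp (NMDA) and 1489 bp (control) after the start. Btg2 had one at chr1:134076954-134078231 in the NMDA list (42.9) and chr1:134076991-134078194 in the control list (43.4), with summits 1543 bp (NMDA) and 1565 bp (control) after the start. By the first replicate column alone the Btg2 difference was 12.9 points, and by the second it was −8.23. A weaker region 17808 bp from the Btg2 start, past its 3′ end, ranked at 14.2 in the NMDA list, a difference of −4.81 points from the control list. The Btg1 region covered the start and the Btg2 region did not. The Btg1 start window is shown because it holds a match of the gapped core as its reverse complement, overlapping a match of AGGGGGC, and a second match of AGGGGGC after it, all in capitals. The match lay inside both regions but 1648 bp from the NMDA summit and 1635 bp from the control summit.
Btg1, chr10:96616751-96617050, plus strand: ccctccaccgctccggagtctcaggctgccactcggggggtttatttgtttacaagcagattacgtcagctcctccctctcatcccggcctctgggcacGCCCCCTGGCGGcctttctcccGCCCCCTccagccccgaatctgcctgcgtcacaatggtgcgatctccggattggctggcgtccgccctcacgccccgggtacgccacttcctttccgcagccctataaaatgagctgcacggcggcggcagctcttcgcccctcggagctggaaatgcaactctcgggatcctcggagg

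The gapped core occurred in the start windows of 5 of 10 members (Mdm2, Gadd45a, Gadd45g, Btg1 and Plk2). These were 5 of the 11 windows of the members, against 8.61% of the 32851 windows of the table. AGGGGGC, searched after the letters of the windows were seen, occurred at 3 members (Mdm2, Cdkn1a and Btg1). These were 3 of the 11 windows, against 10.6% of all windows. Matches were not always near a summit. Those at Gadd45g overlap each other on opposite strands. They lay 962 and 964 bp from the NMDA summit, and 1425 and 1423 bp from the control summit. The match at Plk2 lay 438 bp from the NMDA summit and 445 bp from the control summit. The Cdkn1a match lay outside the regions of both lists, 358 bp from the NMDA region and 496 bp from the control region. The median GC content was 62.3% in the 11 windows of the members and 52.7% in all windows, and the part of GC content in these counts was not tested.

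Bax (chr7:45461695-45466903, minus strand) encodes a protein that opens pores in the outer mitochondrial membrane during cell death. It was the 1 member with summits of list-only regions inside its span. The NMDA list had a region deep in the gene, chr7:45462698-45463788, with a summit 3840 bp after the start and a rank percentile of 41.6, and no control region overlapped it. The control list had a region at the start, chr7:45465352-45466910, with a −log10 p of 51.4, a rank percentile of 10.1 and a summit 748 bp after the start, and no NMDA region overlapped that. The NMDA-only region had the ceiling score of 1000 with replicate columns of 16.9 and 52.0, and the control-only region had a score of 624. A control-only region lay at an end of 1 of 10 members, against 4.03% of genes and 2.77% of the shorter ones. A start covered in the control list and not in the NMDA list was likewise found at 1 of 10 members, against 4.86% of genes and 3.55% of the shorter ones. The start window of Bax is shown because the control-only region reached its start, ending 12 bp upstream of it. It held no match to either motif.
Bax, chr7:45466849-45467148, minus strand: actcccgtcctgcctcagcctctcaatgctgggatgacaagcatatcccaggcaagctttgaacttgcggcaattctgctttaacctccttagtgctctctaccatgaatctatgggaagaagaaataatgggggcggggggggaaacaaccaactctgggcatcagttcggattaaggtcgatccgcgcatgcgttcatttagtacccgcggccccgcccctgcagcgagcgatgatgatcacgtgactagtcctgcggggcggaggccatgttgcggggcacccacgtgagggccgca

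The other regions around Bax lay in the flanks, and all of these were shared. The strongest was 4151 bp upstream, chr7:45470311-45472047 in the NMDA list (rank percentile 85.5) and chr7:45470149-45471633 in the control list (88.0). Towards the glycogen synthase gene Gys1, the pair 15420 bp from the start ranked at 84.7 in the NMDA list and 73.4 in the control list, and the pair 19035 bp away ranked at 45.1 in the NMDA list and 40.9 in the control list. On the other side, inside Dhdh, 2 NMDA regions overlapped a single control region. The NMDA regions were chr7:45475976-45477797 with a rank percentile of 60.1 and the narrower chr7:45477939-45478878 with 15.2, and the control region was chr7:45476450-45478647 with 63.5. The NMDA summits lay 15 and 926 bp from the control summit. Of the 25 control regions in the loci 1 was split in this way, against 1.17% of all control regions.

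Plk2 (chr13:110395044-110400844, plus strand) encodes a polo-like kinase that in neurons is induced by activity and acts at synapses. All 3 of its regions were shared and lay upstream or over the start. The region at the start was chr13:110393591-110395372 in the NMDA list (rank percentile 55.2) and chr13:110393988-110395770 in the control list (58.8), with summits 593 bp (NMDA) and 600 bp (control) upstream. The second, with summits 2683 bp (NMDA) and 2667 bp (control) upstream, ranked at 64.3 in the NMDA list and 67.1 in the control list, a difference that was −37.6 points by the first replicate column alone and 8.07 by the second. The third, 12286 bp (NMDA) and 12327 bp (control) upstream, ranked at 61.7 in the NMDA list and 50.8 in the control list, a difference that was −5.92 points by the first column alone and 18.1 by the second. The replicates disagreed most at the second region, whose replicate columns were 17.8 and 124. That ratio of 6.99 was the highest among the 30 NMDA regions of the loci, whose median was 1.66. In the whole list the median ratio was 1.46.

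**Figure D4:**
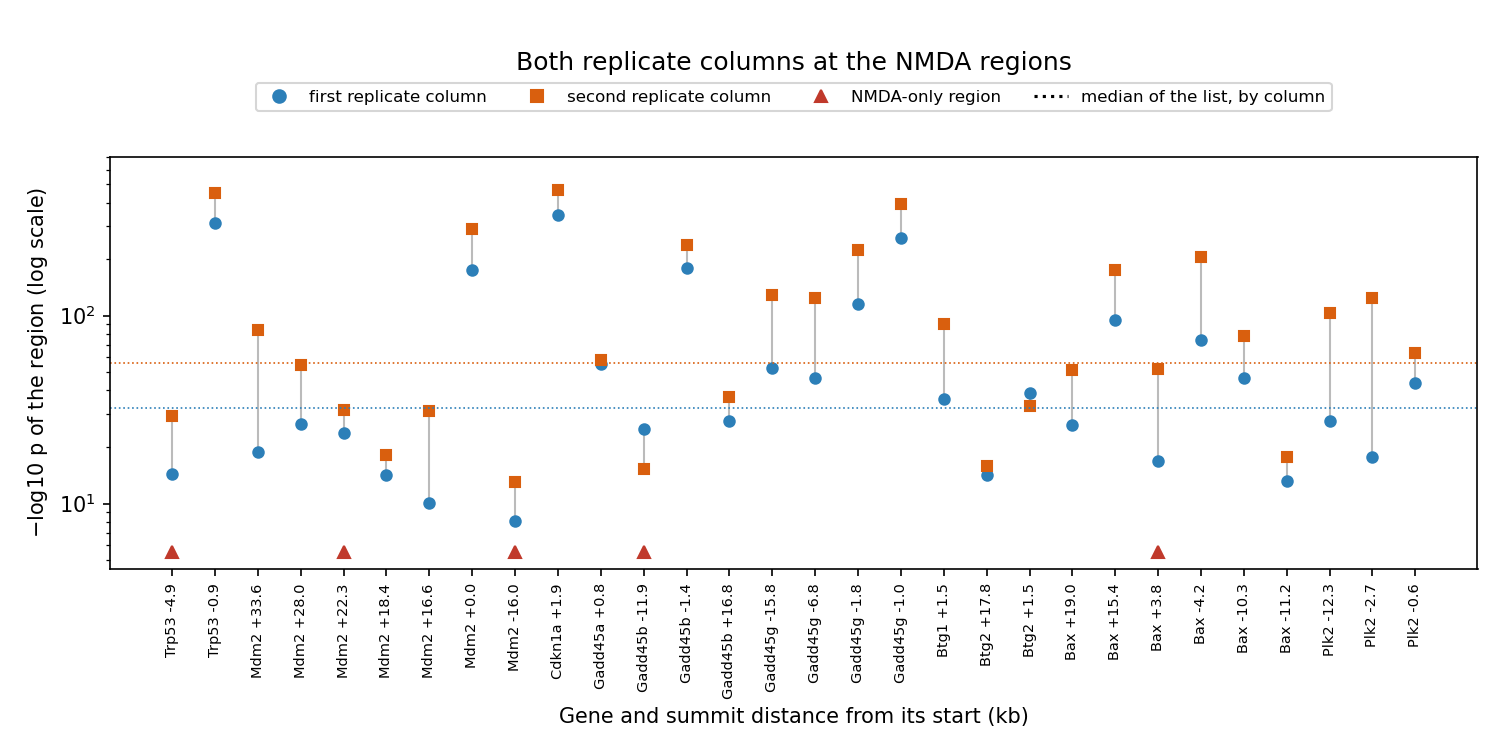
The −log10 p of both replicate columns (log scale) at each of the 30 NMDA regions, named by gene and summit distance from the start in kb. Triangles mark the 5 NMDA-only regions and dotted lines the median of the whole list in each column, 32.1 and 56.1. The columns lie closest at Gadd45a (55.1 and 58.3) and farthest apart at the Plk2 region 2.7 kb upstream.

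The rank percentiles of the 5 NMDA-only regions were 2.76, 24.2, 26.8, 34.6 and 41.6, with a median of 26.8. Of these, 4 were above 12.3, the median of all NMDA-only regions. The single control-only region, at 10.1, stood against a median of 9.51 for all control-only regions. Each of the 5 NMDA-only regions was under the median of the list in both replicate columns, which was 32.1 in the first and 56.1 in the second.

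Other genes of the p53 pathway were taken from 3 lists by role, 43 genes in all. They run up to 208326 bp in length, against 21884 bp for Mdm2, and a longer span can hold more regions of any kind. An NMDA-only region lay in the span with flanks of 12 of the 43, against 26.7% of all genes, and a control-only region in 8, against 16.3%. A shared region lay there in 37 of 43, against 71.8%. At gene ends, 4 of 43 had an NMDA-only region, against 4.81% of genes, and 4 a control-only region, against 4.03%. A summit lay within 2 kb of a start at 13 of 31 genes with an annotated start in the NMDA list, against 33%, and at 15 of 31 in the control list, against 32.4%. By role, an NMDA-only region was found in the loci of 5 of 13 regulators of p53, 3 of 17 arrest, metabolism and repair genes and 4 of 13 cell death genes. A control-only region was found in 4, 2 and 2 of these.

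The NMDA-only regions at gene ends were at Atr, the kinase that signals stalled replication (chr9:95857391-95858444, rank percentile 7.61), at Kat5, an acetyltransferase acting on p53 (chr19:5611545-5612395, 6.57), at Perp, a cell adhesion and death gene (chr10:18844789-18845498, 4.35), and at Mdm4, the relative and partner of Mdm2 (chr1:133024878-133025687, 1.20). The control-only regions at gene ends were at the kinase gene Plk3 (chr4:117133231-117134674, 31.0), at Phlda3 (chr1:135765902-135766783, 27.0), which restrains the kinase Akt, at the kinase gene Hipk2 (chr6:38876132-38877079, 3.87) and at the cell cycle inhibitor gene Cdkn1b (chr6:134919787-134921494, 3.38). Away from ends, the strongest NMDA-only regions were near Phlda3 (26.8) and Zmat3 (20.6), which encodes an RNA-binding protein, and inside Apaf1 (17.7), which encodes the scaffold of the apoptosome. The strongest control-only regions there were inside Trp53bp1, a DNA break response gene (chr2:121289198-121290620, 55.3), and at 2 places at the p53 relative Trp73 (11.3 and 8.61). Phlda3 thus had a control-only region at its end and an NMDA-only region 5631 bp from its nearest end.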

How the data were processed

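The authors deposited 1 list of CTCF regions for NMDA and 1 for control, which the file names mark as IDR output (regions ranked alike in both replicates). Tools named are MACS2, BWA, SAMtools, Trimmomatic and FastQC, with mm10 and GRCm38.p6 as builds, per the submitters' processing notes. Tool versions and settings were not given in the sources used here. The deposited score rises with reproducibility from 540 to 1000. The deposited −log10 p-value of a region, which is the authors' value, grows with depth and was only ranked within its list. In the NMDA list it equals the sum of 2 replicate columns in 36186 of 36186 regions within 0.001. Which replicate each column holds is not stated, and the control list has no such columns.

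Regions on assembled chromosomes were kept (36186 NMDA and 33815 control, leaving out 7 and 5). Gene spans, starts and strands came from RefSeq tables of GRCm38.p6, the assembly of mm10, matched by symbol for 10 of 10 members. Exons and introns were not used. Overlaps were computed in Python 3.11.15 with pandas 2.3.3 and checked with bedtools 2.31.1. The steps were tested on simulated lists. Members and gene lists were chosen with earlier results of these data known. Named pathway genes are those with a list-only region within 1 kb of an end, and the 3 strongest other list-only regions per list. Alternatives changed the overlap rule, score, list length, flank and placement, and, chosen after seeing the data, the window at starts.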

Additional observations from a re-analysis of the deposited data

How the results depend on the processing

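Counts of shared and list-only regions, and of members holding them, were recomputed under 8 alternatives. Counts of summits near starts were recomputed under the stricter score, the shortened NMDA list and other windows alone. The NMDA-only regions in the loci numbered 5, and 4 to 7 under the alternatives other than a flank of 10 kb, which left 3. That flank left 16 shared NMDA regions, and a flank of 50 kb gave 47 shared NMDA and 45 shared control regions, since the loci are then smaller or larger. With shared regions defined by summits within 100 bp there were 2 control-only regions, at 2 members, the second being the displaced summit at Gadd45g. With the stricter score, an IDR of 0.01 or less, there were 0 control-only regions, at 0 members, since the Bax region has a score of 624 and the limit was 830. At Mdm2 that score left 2 shared NMDA regions in place of 5, and gave 3 NMDA-only regions in place of 2. The control region of the Mdm2 pair at 28034 bp, with a score of 817, was among those lost. The counts of summits near starts, 9 for NMDA and 10 for control within 2 kb, were 4 and 5 within 1 kb. With the stricter score the control count within 2 kb was 9. Rank differences among shared regions alone had the same sign in 24 of 25 pairs, and with the first replicate column alone in 15 of 25. No rank difference over 20 points changed sign. No paired analysis was possible because each condition is 1 list over both replicates, and for the same reason no control replicate could be left out. For NMDA, ranking by 1 replicate column at a time stood in for leaving the other out, within the regions already called on both. Depth is unknown, so regions missing from a list may be below its detection limit.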
